A study of Caenorhabditis elegans with 245 samples.

Results

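The mir-58 family, the nematode relatives of the fly microRNA bantam, was followed through 45 small RNA-seq libraries of C. elegans sperm, males and females that carried or lacked a working rnst-2 gene. Members were taken by name among the rows of the miRNA class, and 5 of 250 rows qualified: cel-mir-58a, cel-mir-58b, cel-mir-80, cel-mir-81 and cel-mir-82. The name mir-1834 was also sought, but no row of the miRNA class carries it. The rows are hairpin names, so the arms of a hairpin are not told apart.

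All animals carried fog-2(q71), a background in which XX animals make no sperm and are called females, and that background alone is called WT. The gene under study, rnst-2, encodes the single RNase T2 of the worm. Its allele pen1 (Δ) is a small frameshifting indel and pen4 (cat) replaces a predicted catalytic residue, and heterozygotes carried the balancer tmC16. The paper lists pen4 with a GFP and FLAG tag on rnst-2, which it lists for neither pen1 nor WT. The 10 groups were WT sperm (n = 4) and WT males (n = 4), cat/cat sperm (n = 4) with a second set of cat/cat males (n = 3), Δ/Δ males (n = 6) and Δ/+ males (n = 5), cat/cat males (n = 6) and cat/+ males (n = 5), and Δ/Δ females (n = 4) and Δ/+ females (n = 4). Whole animals were picked as L4 larvae and held at 20 °C for 24 h, while sperm was pressed in bulk from populations made up mostly of males. For rnst-2 mutants the paper gives a lower minimum share of males than for WT, because their synchrony was harder to keep. The labels number the replicates without saying that each was a separate culture, so p-values measure the spread between these libraries, which may in part be technical.

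MicroRNAs guide Argonaute proteins to messenger RNAs whose 3′ ends pair with the seed, the bases near the 5′ end of the microRNA, and members of a family share that seed. In worms the mir-58 family is among the most abundant microRNA families and is known for regulating body size, egg laying, dauer formation and TGF-β signalling, with members that can stand in for each other. Bantam, the fly relative, promotes growth and blocks cell death.

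The mature sequences are shown because the split of the family by its seed, and the near identity of mir-81 and mir-82, bear on how the counts can be read. They are the RefSeq arms of build WBcel235, 5′ to 3′, with the seed (bases 2 to 8) in capitals. The first 5 lines are the members and the last is cel-mir-2209a, the single other miRNA row that shares bases 2 to 7.
cel-mir-58a: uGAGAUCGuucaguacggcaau
cel-mir-58b: aGAGAUCAaccauugagauccaa
cel-mir-80: uGAGAUCAuuaguugaaagccga
cel-mir-81: uGAGAUCAucgugaaagcuagu
cel-mir-82: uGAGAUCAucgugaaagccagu
cel-mir-2209a: aGAGAUCAgcgguuacacuaca

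Of the 250 miRNA rows, 235 matched a RefSeq arm, and 6 of these shared bases 2 to 7. The seed of cel-mir-58a differed from that of the other members by the substitution G8A (positions count from 1 at the 5′ end, with the cel-mir-58a base first). Mature cel-mir-81 and cel-mir-82 were the same at 21 of 22 positions and differed by U19C alone. Reads of one can therefore be placed on the other, so the 2 rows are uncertain as single rows. Their sum is given beside each main comparison of 2 groups in which either was called. It was not fitted for differences between contrasts, with replicate numbers as a block or on a subset of the libraries. All other pairs within the family differed at 8 to 12 positions.

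The hairpins lie on 3 chromosomes of WBcel235. That of mir-80 spans chromosome III 8865270 to 8865367 on the minus strand, opposite an exon of the non-coding RNA K01F9.6. That of mir-58.1, which gives cel-mir-58a, spans IV 3233254 to 3233350 on the plus strand in an intron of phkb-1, and it overlaps an exon of the non-coding RNA Y67D8A.6. The hairpin of mir-58.2, which gives cel-mir-58b, spans IV 6660461 to 6660519 on the minus strand and overlaps no annotated gene. Both remaining hairpins sit in an intron of gid-2: mir-81 at X 2431072 to 2431179 on the plus strand, opposite to gid-2, and mir-82 at X 2435258 to 2435354 on the minus strand, the strand of gid-2. Between them lie 4078 bases.

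Library totals ran between 4976236 and 51191372 counts (median 11470326). The oocyte miRNAs mir-35 to mir-42 took 2.92 to 6.93% of miRNA counts in females and 0.0255 to 0.328% in males, and fragments of major sperm protein mRNAs summed to 0 to 38.4 rpm of mRNA-fragments in females, as their labels imply. The share of the miRNA class and that of rRNA changed with the groups and touch the results on every scale. The miRNA class held 6.10 to 10.1% of the non-rRNA counts in WT sperm and 36.2 to 46.8% in WT males, against 5.27 to 9.44% in cat/cat sperm and 20.0 to 24.3% in the second set of cat/cat males. rRNA fragments held 58.7 to 68.3% of all counts in cat/cat sperm and 15.9 to 24.5% in WT sperm. They held 18.3 to 25.5% in Δ/Δ males against 3.55 to 5.47% in Δ/+ males, and 21.2 to 26.9% in cat/cat males against 3.90 to 5.72% in cat/+ males. Each member is therefore given on 2 scales, as reads per 1000000 (rpm) of the library and as a percentage of the library's miRNA counts. Tests used edgeR's quasi-likelihood test with Benjamini-Hochberg adjustment, over all RNAs on the first scale and over the miRNA rows on the second, and a member was called at an adjusted p under 0.05.

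As a share of miRNA counts, the family was a major part of the miRNA pool in every library, between 17.7% in the lowest, a cat/cat sperm library, and 66.2% in the highest, a cat/+ male library. Group means were 47.8% ± 2.2 in Δ/+ females and 44.1% ± 2.1 in Δ/Δ females (SD, n = 4 each), and 36.3% ± 2.6 in WT sperm and 29.2% ± 2.1 in WT males (SD, n = 4 each). They were 25.3% ± 5.3 in cat/cat sperm (SD, n = 4) and 32.6% ± 1.3 in the second set of cat/cat males (SD, n = 3). In the other male groups the spread between libraries was wider: 31.6% ± 8.3 in Δ/Δ males (n = 6), 34.4% ± 6.9 in Δ/+ males (n = 5), 38.3% ± 4.9 in cat/cat males (n = 6) and 41.2% ± 15 in cat/+ males (n = 5), all as mean and SD.

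**Figure D1:**
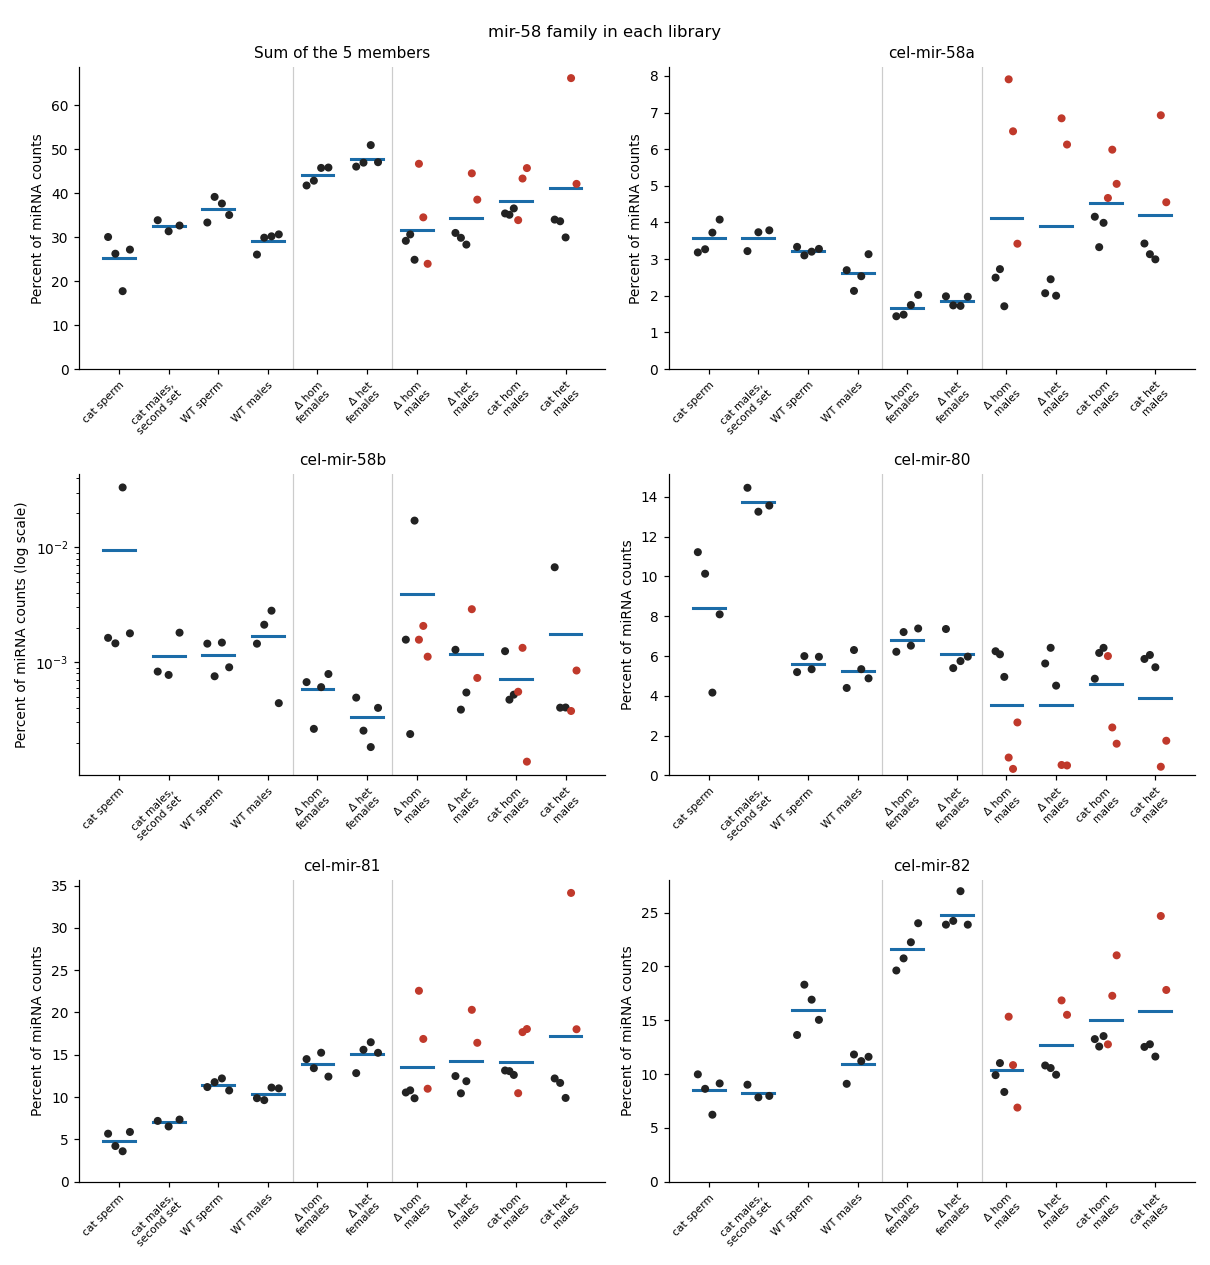
Share of miRNA counts (percent, y axis) taken by each member in each library (points) of the 10 groups (x axis), with the group mean as a bar; red points are replicates 4 to 6 of the Δ and cat male groups, hom and het stand for homozygous and heterozygous rnst-2, and cel-mir-58b has a log axis. cel-mir-82 and cel-mir-81 lie above the other members in WT sperm and in females, and cel-mir-80 reaches 13.3 to 14.5% in the second set of cat/cat males.

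The members kept a loose order. cel-mir-82 was the most abundant of all miRNA rows in all 8 female libraries, with cel-mir-81 in rank 2. In WT sperm the same pair held ranks 2 and 3, and in WT males they held ranks 2 to 4. The ranges of cel-mir-81 and cel-mir-82 did not overlap in WT sperm (10.8 to 12.2% against 13.6 to 18.3%) but did in WT males (9.63 to 11.1% against 9.09 to 11.8%). cel-mir-80 followed at 5.19 to 5.99% in WT sperm and 4.39 to 6.30% in WT males, and cel-mir-58a held 3.10 to 3.33% in WT sperm and 2.13 to 3.14% in WT males.

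cel-mir-58b stood far below the rest, at rank 106 to 242 in every library. It had 19, 13, 35 and 17 counts in WT sperm and 69, 150, 206 and 36 counts in WT males. With such counts its fold changes rest on few reads, and a single library often set its group mean. In cat/cat sperm it had 4, 3, 122 and 8 counts, in Δ/Δ males 6 to 314 counts and in cat/+ males 4 to 220 counts.

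Leftover reads were counted in separate rows for annotated arms, as sense mRNA-fragments, after the miRNA step. There the seed-bearing arms had reads for cel-mir-58a, cel-mir-80, cel-mir-81 and cel-mir-82, up to 1388 counts for cel-mir-82 in a WT male library. The opposite arms had 0 to 4 counts in every library, and neither arm row of cel-mir-58b had more than 3.

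The first question was whether the family follows sperm or the rest of the male body. All 5 members were lower in WT sperm than in WT males in rpm, with no overlap between the groups. The share of all RNAs without overlap was not counted, so the lack of overlap is no result about the members. cel-mir-82 had 8087, 12554, 7791 and 12742 rpm in WT sperm, against 30976, 47913, 51004 and 48807 rpm in WT males. cel-mir-81 had 6634, 8067, 5621 and 9133 rpm in WT sperm, against 33610, 39066, 50623 and 46391 rpm in WT males. The highest sperm library of either row thus stayed below the lowest male library.

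cel-mir-80 had 3080, 4112, 2458 and 5051 rpm in WT sperm, against 14972, 25548, 24306 and 20517 rpm in WT males. cel-mir-58a had 1978, 2128, 1476 and 2779 rpm in WT sperm, against 9195, 8650, 11536 and 13190 rpm in WT males. The log2 fold changes (sperm over male) in edgeR's quasi-likelihood test were -2.12 ± 0.20 for cel-mir-82 (SE; adjusted p = 2.2e-06), -2.53 ± 0.17 for cel-mir-81 (adjusted p = 3.1e-07), -2.54 ± 0.22 for cel-mir-80 (adjusted p = 1.5e-06), -2.35 ± 0.19 for cel-mir-58a (adjusted p = 1.0e-06) and -3.31 ± 0.49 for cel-mir-58b (adjusted p = 6.6e-05). Summed as a single row, cel-mir-81 and cel-mir-82 gave -2.30 ± 0.18.

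The class as a whole was lower. Of all RNAs tested, 33.6% were called lower in WT sperm (8214 lower and 7601 higher, or 6326 lower and 9194 higher with TMM scaling), and among the miRNA rows 93.5% were, with a median log2 fold change of -2.68 over all miRNAs and -2.53 over the 5 members. Other families fell too: let-7, known for developmental timing, had 7 of 7 rows lower (median -2.96), mir-35, known from oocytes and embryos, 8 of 8 (median -2.98), and mir-51, a broadly expressed family, 6 of 6 (median -2.67). In bulk samples fewer cells of a type and less RNA per cell cannot be told apart. The fragments of 6 somatic mRNAs summed to 971 to 2213 rpm of mRNA-fragments in WT sperm and 314 to 698 in WT males, and those of 31 major sperm protein genes to 591 to 1079 in WT sperm and 467 to 722 in WT males, ranges that overlap. The part of these other RNAs in the result was not tested.

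Within the miRNA class the values differed. cel-mir-82 took 13.6, 18.3, 16.9 and 15.0% of miRNA counts in WT sperm, against 9.09, 11.8, 11.2 and 11.6% in WT males, and was the single member called (log2 fold change 0.55 ± 0.13, adjusted p = 0.013, edgeR's quasi-likelihood test). Of the miRNA rows 12.5% were called higher on this scale. cel-mir-58a (0.30), cel-mir-80 (0.10), cel-mir-81 (0.14) and cel-mir-58b (-0.57) were not called. The summed pair gave 0.36 ± 0.11 (adjusted p = 0.039). The call of cel-mir-82 was lost with TMM scaling (0.33, adjusted p = 0.53) and with DESeq2 (0.22, adjusted p = 0.72). These scalings moved the median of all miRNA rows by -0.14 and -0.18, and cel-mir-80 (-0.084 and -0.18) and cel-mir-81 (-0.091 and -0.21) then lay below zero.

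**Figure D2:**
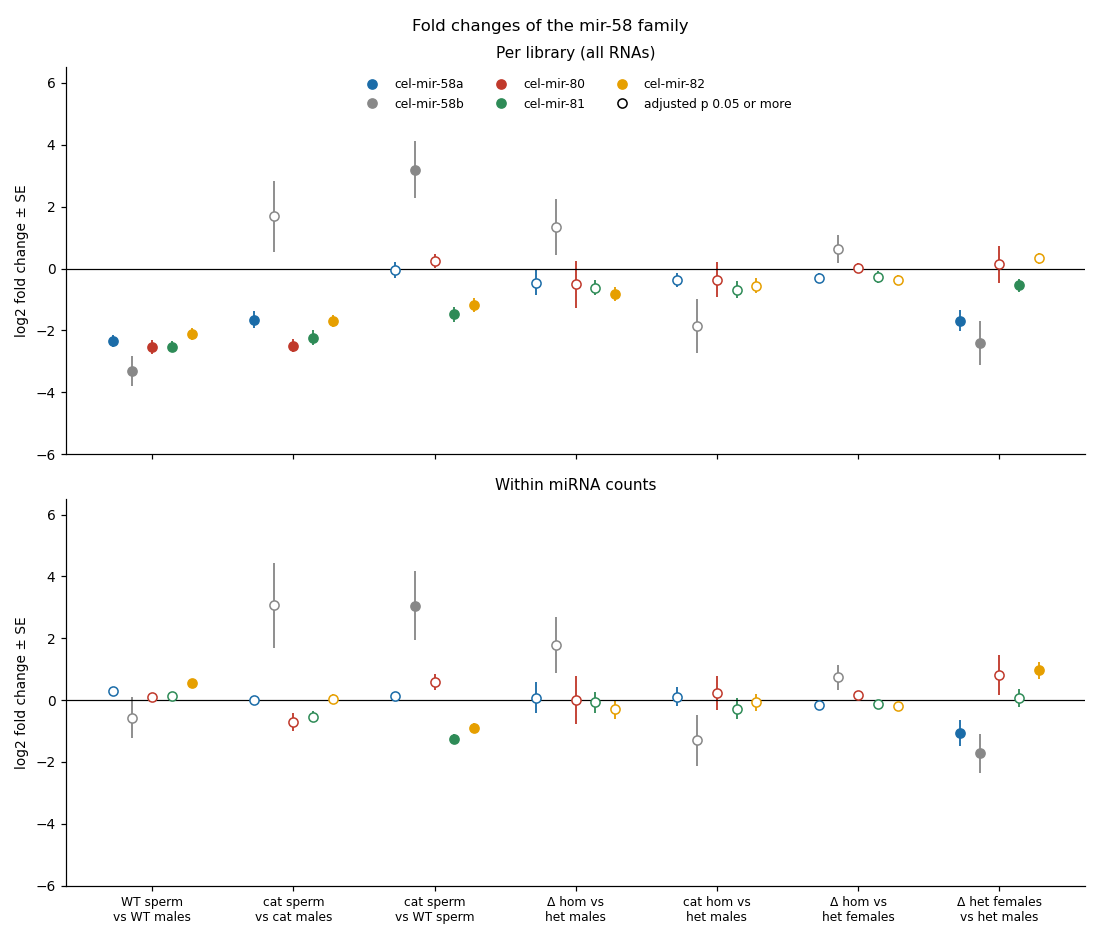
Log2 fold changes (y axis, first-named group over second, bars ± SE) of the 5 members in each comparison, in rpm and within the miRNA class; open markers have an adjusted p of 0.05 or more. In WT sperm all 5 members lie between -3.31 and -2.12 in rpm and between -0.57 and 0.55 within the class.

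cat/cat sperm was compared with the second set of cat/cat males, with rRNA counts left out of the library size. Again 4 of 5 members were lower in sperm, where 38.7% of all RNAs and 24.9% of miRNA rows were called lower (7139 RNAs lower and 6252 higher, or 10104 lower and 4372 higher with rRNA kept in the library size). cel-mir-80 had 6335, 5345, 3925 and 6351 rpm in cat/cat sperm, against 33442, 26527 and 32935 rpm in cat/cat males (log2 fold change -2.50 ± 0.21, adjusted p = 7.3e-06). cel-mir-81 had 3199, 2219, 3389 and 4608 rpm in cat/cat sperm, against 16604, 13054 and 17819 rpm in cat/cat males (-2.24 ± 0.24, adjusted p = 3.1e-05). cel-mir-82 (-1.68 ± 0.19, adjusted p = 4.6e-05) and cel-mir-58a (-1.65 ± 0.26, adjusted p = 2.9e-04) were also called by edgeR's quasi-likelihood test, and the sum of cel-mir-81 and cel-mir-82 gave -1.91 ± 0.21 (adjusted p = 4.0e-05).

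The ranges did not overlap for any of these 4 members, though how many other RNAs had no overlap was not counted. cel-mir-58b did not pass (1.69 ± 1.15, adjusted p = 0.21) and turned to -1.28 (adjusted p = 0.046) without cat/cat sperm replicate 3. Over all miRNAs the median here was 0.41, against -1.68 over the members. Within the miRNA class 0 of 5 members were called by edgeR's quasi-likelihood test (2 at an unadjusted p under 0.05) and 0 by DESeq2, where 0.83% of miRNA rows were called lower and 9.54% higher (23 higher and 2 lower, or 20 higher and 19 lower with TMM, which moved the median by -1.38). Without cat/cat sperm replicate 3, cel-mir-80 (-0.49, adjusted p = 0.0083) and cel-mir-81 (-0.42, adjusted p = 0.023) were called lower within the class.

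The cat/cat and WT sperm preparations were then set against each other, and the same WT sperm libraries served in the comparison with WT males. No label says that the preparations were made together, so genotype and library set cannot be told apart. Library totals were 22041936 to 51191372 counts in WT sperm and 11319131 to 13811572 in cat/cat sperm. cel-mir-81 and cel-mir-82 were lower in cat/cat sperm, where 23.8% of all RNAs tested and 7.26% of miRNA rows were called lower, while cel-mir-58a and cel-mir-80 did not pass.

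cel-mir-81 had 3199, 2219, 3389 and 4608 rpm without rRNA in cat/cat sperm, against 8702, 10532, 7444 and 10854 in WT sperm. cel-mir-82 had 5629, 4548, 5868 and 7161 rpm in cat/cat sperm, against 10608, 16390, 10318 and 15144 in WT sperm. For both rows every cat/cat library lay below every WT library, and the share of all RNAs without overlap was not counted here either. The log2 fold changes were -1.48 ± 0.23 for cel-mir-81 (adjusted p = 2.3e-04) and -1.18 ± 0.22 for cel-mir-82 (adjusted p = 7.4e-04), and -1.30 ± 0.23 for their sum (adjusted p = 4.9e-04), all by edgeR's quasi-likelihood test.

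In contrast, cel-mir-58a had 1797, 1724, 3513 and 3201 rpm in cat/cat sperm, against 2595, 2778, 1955 and 3303 in WT sperm, and cel-mir-80 had 6335, 5345, 3925 and 6351 rpm in cat/cat sperm, against 4040, 5368, 3255 and 6003 in WT sperm. Their ranges overlapped (log2 fold changes -0.055 and 0.23, adjusted p = 0.87 and 0.39). cel-mir-58b was called higher (3.20 ± 0.93, adjusted p = 0.011), where 31.8% of all RNAs and 63.7% of miRNA rows were. This call rested on the 122 counts of cat/cat sperm replicate 3: without that library it was 0.24 (adjusted p = 0.68), and the replicate block gave 2.11 (adjusted p = 0.066). With rRNA counts kept in the library size 5 of 5 members were called, among them cel-mir-58a at -1.18 (adjusted p = 0.0029) and cel-mir-80 at -0.86 (adjusted p = 0.019), so that the sign of cel-mir-80 turned. That choice moved the median of all RNAs by -1.10 and the calls so that 1548 RNAs were higher and 13277 lower, against 7267 higher and 5439 lower without rRNA.

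The same pair fell within the miRNA class. cel-mir-81 took 5.67, 4.21, 3.59 and 5.87% of miRNA counts in cat/cat sperm, against 11.2, 11.8, 12.2 and 10.8% in WT sperm (log2 fold change -1.25 ± 0.17, adjusted p = 4.3e-04). cel-mir-82 took 9.97, 8.62, 6.22 and 9.13% in cat/cat sperm, against 13.6, 18.3, 16.9 and 15.0% in WT sperm (-0.91 ± 0.16, adjusted p = 0.0028). Their sum gave -1.04 ± 0.15 (adjusted p = 7.2e-04). This stood against the rest of the class, of which 53.0% of rows were called higher and 5.98% lower, with a median of 1.80. TMM moved that median by -1.55 and the calls in the class to 53 higher and 37 lower, against 124 higher and 14 lower; cel-mir-81 (-2.29, adjusted p = 0.013) and cel-mir-82 (-1.97, adjusted p = 0.024) stayed called, while cel-mir-58a (-0.998) and cel-mir-80 (-0.43) took a negative sign without passing. With DESeq2 cel-mir-58a passed as lower too (-1.17, adjusted p = 0.032). cel-mir-81 had the 5th lowest and cel-mir-82 the 9th lowest log2 fold change of 234 miRNA rows.

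cel-mir-80 took 11.2, 10.1, 4.16 and 8.09% of miRNA counts in cat/cat sperm, against 5.19, 5.99, 5.34 and 5.96% in WT sperm. The 3 other libraries lay above all WT libraries and replicate 3 below them, and the difference did not pass (0.58 ± 0.26, adjusted p = 0.069) until replicate 3 was left out (0.80, adjusted p = 3.0e-04). cel-mir-58b was called on this scale too (3.06, adjusted p = 0.039) and was not called without cat/cat sperm replicate 3 (0.52, adjusted p = 0.48) or without any single WT sperm library (adjusted p = 0.069 to 0.11). TMM (0.998, adjusted p = 0.21), DESeq2 (0.77, adjusted p = 0.30) and the replicate block (1.76, adjusted p = 0.090) also removed this call, as did leaving the members out of the miRNA total (2.72, adjusted p = 0.052).

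**Figure D3:**
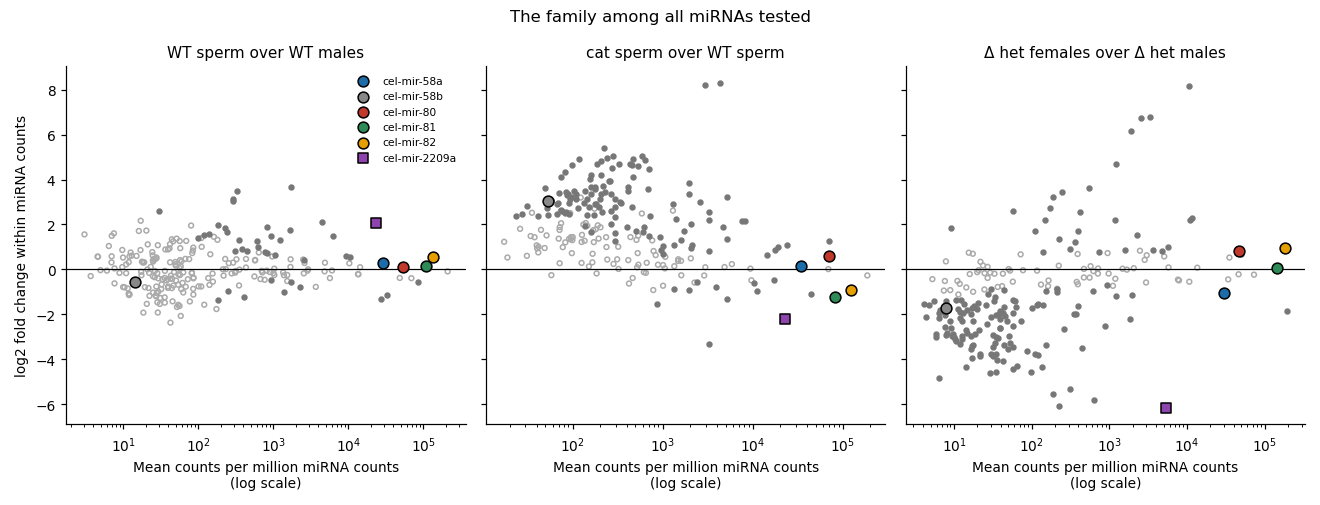
Log2 fold changes within the miRNA class (y axis) of all tested miRNA rows against their mean level (x axis, log scale), with the members and cel-mir-2209a in colour, other called rows in filled grey and rows not called as open circles. In cat/cat over WT sperm cel-mir-81 (-1.25) and cel-mir-82 (-0.91) lie below zero while the median of the class is 1.80.

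Several lists moved with this contrast. The oocyte miRNAs mir-35 to mir-42 summed to 0.80 to 2.49% of miRNA counts in cat/cat sperm, against 0.139 to 0.375% in WT sperm, with 8 of 8 rows called higher. The mir-51 family was higher in 6 of 6 rows (median 2.27 within the class). The 4 somatic miRNAs mir-1, mir-124, mir-60 and mir-228 summed to 9.24 to 10.8% in cat/cat sperm and 3.71 to 4.801% in WT sperm, nearly all of it mir-228. Fragments of the yolk protein mRNAs vit-2 and vit-6 reached 1350 to 1678 rpm of mRNA-fragments in cat/cat sperm and 233 to 780 in WT sperm. The part of such RNAs, of the rRNA share and of the share of males in the starting populations in the lower values of cel-mir-81 and cel-mir-82 was not tested.

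The difference between the 2 sperm over male contrasts was tested as an interaction, in which genotype and library set cannot be told apart either. In rpm, cel-mir-58b alone of the members was called (log2 difference 4.70, adjusted p = 0.022), where 3.78% of all RNAs and 48.2% of miRNA rows were called higher, and it was lost without cat/cat sperm replicate 3 (1.72, adjusted p = 0.21) or without cat/cat male replicate 1 (4.51, adjusted p = 0.070) or 3 (4.45, adjusted p = 0.071), and with the replicate block (3.51, adjusted p = 0.14). Within the miRNA class cel-mir-81 was called (-0.68, adjusted p = 0.046; 3.21% of miRNA rows lower), and it was not called without cat/cat sperm replicate 2, without any of the 3 cat/cat male libraries, without any of the 4 WT sperm libraries or without WT male replicate 1 or 2 (adjusted p = 0.051 to 0.11), nor with TMM (-1.46, adjusted p = 0.15), DESeq2 (-1.16, adjusted p = 0.33) or the replicate block (-0.65, adjusted p = 0.063).

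Next, homozygous rnst-2 males were compared with heterozygous males. In Δ/Δ males cel-mir-82 ranged between 12060 and 31392 rpm (median 21724, n = 6), against 36121, 28708, 30316, 46698 and 47043 rpm in Δ/+ males. A single Δ/Δ library exceeded the lowest Δ/+ library. cel-mir-82 was the 1 member called (-0.82 ± 0.22, adjusted p = 0.026, edgeR's quasi-likelihood test), where 12.1% of all RNAs and 2.51% of miRNA rows were called lower (1825 RNAs lower and 197 higher, or 89 lower and 148 higher with rRNA left out of the library size, which moved the median by 0.27).

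The call did not survive without Δ/Δ replicate 3 (adjusted p = 0.057), Δ/+ replicate 4 (0.068) or Δ/+ replicate 5 (0.071), nor with rRNA left out of the library size (-0.55, adjusted p = 0.26), TMM (-0.37, adjusted p = 0.66) or DESeq2 (-0.34, adjusted p = 0.64). cel-mir-81 ranged between 19245 and 46205 rpm in Δ/Δ males (median 22941), against 41759, 28392, 36216, 56310 and 49800 rpm in Δ/+ males (-0.61 ± 0.24, adjusted p = 0.11). It was called when Δ/Δ replicate 4 was left out (-0.82, adjusted p = 0.030). The sum of both rows passed narrowly (-0.71 ± 0.22, adjusted p = 0.049). cel-mir-58a (-0.46), cel-mir-80 (-0.51) and cel-mir-58b (1.34) were not called.

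Replicate numbers paired the Δ libraries, since same-numbered libraries deviated together in all 5 pairs. With the replicate number as a block 3 members were called lower: cel-mir-82 (-0.69, adjusted p = 0.0073), cel-mir-81 (-0.55, adjusted p = 0.012) and cel-mir-58a (-0.40, adjusted p = 0.031). The block also raised the share called lower to 19.8% of all RNAs and 12.6% of miRNA rows, with a median of -0.44 over all RNAs and -0.16 over the miRNA rows. Within the miRNA class 0 of 5 members and 0.0% of miRNA rows were called with edgeR (0 members at an unadjusted p under 0.05), 0 members with DESeq2 and 0 with the block.

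In cat/cat males 0 of 5 members were called against cat/+ males by edgeR (2 at an unadjusted p under 0.05) and 0 by DESeq2, where 11% of all RNAs and 7.35% of miRNA rows were called lower (1791 RNAs lower and 172 higher, or 6 lower and 89 higher with rRNA left out, which moved the median by 0.34). cel-mir-82 ranged between 21913 and 43012 rpm in cat/cat males (median 28006), against 35096, 37637, 35435, 43714 and 63173 rpm in cat/+ males (-0.55 ± 0.25, adjusted p = 0.17). cel-mir-81 ranged between 17959 and 36889 rpm (median 27112) in cat/cat males, against 34194, 34406, 30166, 60437 and 63889 rpm in cat/+ males (-0.69 ± 0.27, adjusted p = 0.11). The groups overlapped for both, and their sum did not pass (-0.62 ± 0.27, adjusted p = 0.15). cel-mir-58a (-0.36), cel-mir-80 (-0.37) and cel-mir-58b (-1.85) also stayed above the threshold, and cel-mir-58b was called without cat/+ replicate 4 (-2.13, adjusted p = 0.044). Within the miRNA class edgeR and DESeq2 called 0 of 5 members (0 at an unadjusted p under 0.05) and edgeR 0.0% of miRNA rows. The difference between the cat and Δ contrasts was called for 0 of 5 members on either scale by edgeR (1 at an unadjusted p under 0.05, cel-mir-58b) or DESeq2, where 0.0% of all RNAs were called by edgeR.

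The spread of the Δ and cat male groups differed by replicate number. The family share was 23.9 to 66.2% in replicates 4 to 6 (median 42.7%, n = 10). In replicates 1 to 3 it was 24.9 to 36.5% (median 30.8%, n = 12), so the ranges overlapped. In the Δ and cat male groups, cel-mir-80 took 0.325 to 5.997% of miRNA counts in replicates 4 to 6 (median 1.24%, n = 10) and 4.51 to 6.41% in replicates 1 to 3 (median 5.95%, n = 12). cel-mir-58a moved the other way, with 3.42 to 7.91% in replicates 4 to 6 (median 6.06%) and 1.71 to 4.16% in replicates 1 to 3 (median 2.86%). The exception among replicates 4 to 6 was cat/cat male replicate 4, at 5.997% for cel-mir-80.

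The ratio of cel-mir-80 to cel-mir-58a ran between 0.05003 and 1.28 in replicates 4 to 6 (median 0.214) and between 1.17 and 2.89 in replicates 1 to 3 (median 2.08). Of 103 miRNAs with a mean of at least 100 per 1000000 miRNA counts, cel-mir-80 had the 5th lowest log2 ratio of replicates 4 to 6 over 1 to 3 (-2.26) and cel-mir-58a the 3rd highest (1.08). cel-mir-81 (0.60) and cel-mir-82 (0.51) lay above zero. Rows with lower ratios than cel-mir-80 were mir-236 (-2.93), mir-86, mir-60 and mir-79.

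Totals were 4976236 to 14724313 counts in replicates 4 to 6 (median 6446541) and 8179849 to 14836506 in replicates 1 to 3 (median 11800263). The labels give no batch for these numbers, and the part of depth in the split was not tested. The split was noticed in the values of cel-mir-80 and carries no test. The homozygous and heterozygous groups both held libraries of either kind.

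**Figure D4:**
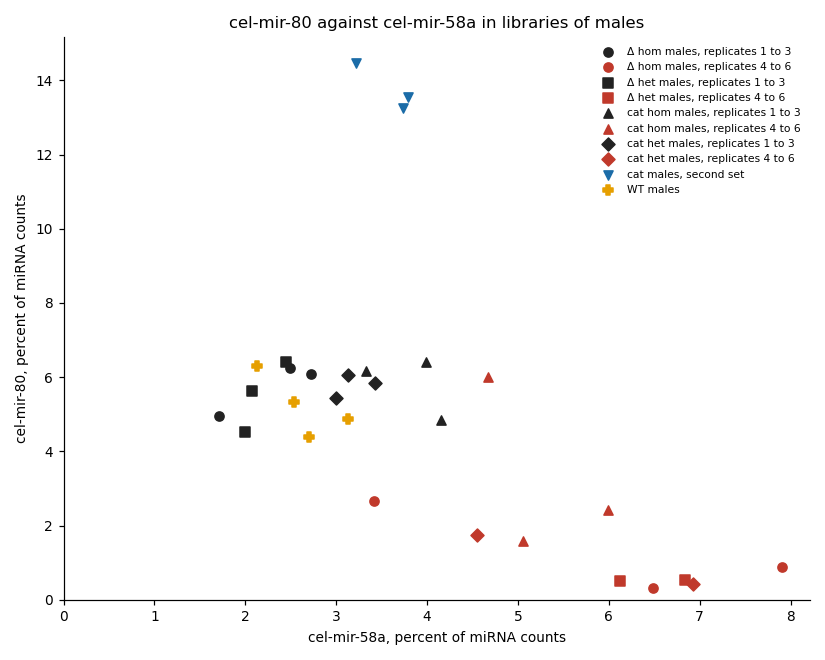
Share of miRNA counts (percent) of cel-mir-80 (y axis) against cel-mir-58a (x axis) in each library of males, with replicates 4 to 6 of the Δ and cat males in red, their replicates 1 to 3 in black, the second set of cat/cat males in blue and WT males in yellow. Black points sit between 4.51 and 6.41% of cel-mir-80, and 9 of the 10 libraries of replicates 4 to 6 sit below them.

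Replicates 1 to 3 were also fitted alone. In Δ/Δ against Δ/+ males cel-mir-80 (-0.41, adjusted p = 0.035), cel-mir-81 (-0.65, adjusted p = 0.011) and cel-mir-82 (-0.58, adjusted p = 0.011) were called lower by edgeR's quasi-likelihood test, where 15.7% of all RNAs and 8.68% of miRNA rows were, with a median of -0.48 over all RNAs and 0.21 over the miRNA rows. In cat/cat against cat/+ males the same 3 members were called lower, at -0.50 (adjusted p = 0.0069), -0.30 (adjusted p = 0.014) and -0.41 (adjusted p = 0.0012). There 11.1% of all RNAs and 24.9% of miRNA rows were called lower, with medians of -0.48 and -0.72, so 2 of these 3 members lay nearer to zero than the median of all RNAs and cel-mir-80 close to it. As shares of the class, edgeR called 0 members and 0 miRNA rows in either allele (0 members at an unadjusted p under 0.05 in the Δ and 1 in the cat males). Within replicates 4 to 6 edgeR called 0 members in either allele (1 at an unadjusted p under 0.05 in the Δ and 0 in the cat males) and 0 RNAs lower. This choice of libraries was made after the data were seen, and the rRNA share was higher in homozygotes within it too.

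Second libraries of the same genotype differed as well. cel-mir-80 took 14.5, 13.3 and 13.6% of miRNA counts in the second set of cat/cat males and 1.59 to 6.41% in the first set (median 5.43%, n = 6), without overlap. cel-mir-81 took 7.18, 6.52 and 7.34% in the second set and 10.5 to 18.04% in the first. The tables were made separately, and this difference was not tested.

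In females the family had its highest group means, and the rnst-2 genotype changed no member past the threshold. cel-mir-82 had 37180, 39558, 40625 and 38412 rpm without rRNA in Δ/Δ females, against 40708, 51854, 54261 and 52221 rpm in Δ/+ females. cel-mir-58a had 2731, 2833, 3190 and 3239 rpm in Δ/Δ females, against 3384, 3718, 3465 and 4315 rpm in Δ/+ females. For both rows the groups did not overlap, though the nearest libraries of cel-mir-82 stood at 40625 and 40708 rpm. The share of all RNAs without overlap was not counted, so this is no result about the members.

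The log2 fold changes were -0.36 ± 0.16 for cel-mir-82, -0.31 ± 0.16 for cel-mir-58a, -0.28 ± 0.19 for cel-mir-81, 0.013 ± 0.15 for cel-mir-80, -0.33 ± 0.17 for the sum of cel-mir-81 and cel-mir-82 and 0.63 ± 0.44 for cel-mir-58b. All adjusted p-values rounded to 1.00 in edgeR's quasi-likelihood test, where 0.0203% of all RNAs were called, with 1 member, cel-mir-82, at an unadjusted p under 0.05 and 0 called by DESeq2. Within the miRNA class 0 of 5 members were called by edgeR or DESeq2 (0 at an unadjusted p under 0.05), and 0.0% of miRNA rows. The female and male Δ contrasts differed for 0 of 5 members on either scale by edgeR (0 at an unadjusted p under 0.05) or DESeq2, with 0.129% of all RNAs called by edgeR.

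Δ/+ females were also set against Δ/+ males, from a different table, so that sex and library set cannot be told apart. cel-mir-58a was lower in females: 3384, 3718, 3465 and 4315 rpm without rRNA in Δ/+ females, against 7201, 6910, 6389, 20067 and 19338 rpm in Δ/+ males (log2 fold change -1.69 ± 0.35, adjusted p = 6.0e-04). cel-mir-58b (-2.41 ± 0.71, adjusted p = 0.0078) and cel-mir-81 (-0.55 ± 0.21, adjusted p = 0.032) were also lower, where 28.2% of all RNAs and 67.7% of miRNA rows were called lower by edgeR's quasi-likelihood test (4416 RNAs lower and 5860 higher, or 5113 lower and 4149 higher with TMM). Over the miRNA rows the median was -2.02, so cel-mir-58a and cel-mir-81 fell less than that median and cel-mir-58b more. Calls in 3 of 5 members are near the share of miRNA rows and are no result about the members.

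The sum of cel-mir-81 and cel-mir-82 did not pass (-0.067 ± 0.19, adjusted p = 0.77). The call of cel-mir-81 was lost with the replicate block (-0.47, adjusted p = 0.12), and without Δ/+ female replicate 1 or 4, or without Δ/+ male replicate 1, 4 or 5 (adjusted p = 0.051 to 0.097). cel-mir-80 (0.14) and cel-mir-82 (0.33) were not called, and both took a negative sign with TMM (-0.35 and -0.11), which moved the median of all RNAs by -0.45. With males of replicates 1 to 3 alone, a choice made after the data were seen, cel-mir-80 was lower (-0.52, adjusted p = 0.0052) and cel-mir-82 higher (0.58, adjusted p = 0.0020) in females, while cel-mir-81 was not called (-0.29, adjusted p = 0.15). In that fit 29.3% of all RNAs and 75.1% of miRNA rows were called lower, and 40.3% of all RNAs and 9.78% of miRNA rows higher.

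Within the class, cel-mir-82 was higher in females. It took 23.9, 24.2, 26.99 and 23.9% of miRNA counts in Δ/+ females, against 10.8, 10.6, 9.94, 16.8 and 15.5% in Δ/+ males (0.96 ± 0.28, adjusted p = 0.0075), where 13.1% of miRNA rows were called higher. Summed with cel-mir-81 it did not pass (0.56 ± 0.30, adjusted p = 0.11). cel-mir-58a (-1.07, adjusted p = 0.035) and cel-mir-58b (-1.72, adjusted p = 0.027) were called lower within the class, where 56.3% of miRNA rows were (129 lower and 30 higher, or 82 lower and 48 higher with TMM, which moved the median by 0.85). That median was -1.38 without TMM, so cel-mir-58a fell less than the median of the class and cel-mir-58b more. With males of replicates 1 to 3 alone, cel-mir-58a moved to -0.23 (adjusted p = 0.074) and cel-mir-58b to -1.10 (adjusted p = 0.061). Both calls depended on single libraries: cel-mir-58a was not called without any single female library or without male replicate 4 or 5 (adjusted p = 0.068 to 0.082), and cel-mir-58b not without female replicate 2, 3 or 4 or male replicate 4 (adjusted p = 0.053 to 0.078).

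Scaling changed which members were called in this class test. With TMM neither cel-mir-58a (-0.22, adjusted p = 0.64) nor cel-mir-58b (-0.84, adjusted p = 0.23) passed, and with DESeq2 they stood at 0.13 (adjusted p = 0.77) and -0.49 (adjusted p = 0.44). cel-mir-80 was instead called higher in females (1.63 with TMM, adjusted p = 0.048, and 1.82 with DESeq2, adjusted p = 0.017), as was cel-mir-81 (0.93, adjusted p = 0.013, and 1.26, adjusted p = 6.7e-07). cel-mir-82 was called higher with both (1.81, adjusted p = 1.4e-04, and 2.13, adjusted p = 1.6e-17).

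The balance of the X-linked pair was read per library. In each, the ratio of cel-mir-81 to cel-mir-82 counts was 0.49 to 0.64 in cat/cat sperm and 0.80 to 0.92 in the second set of cat/cat males. It was 0.64 to 0.82 in WT sperm and 0.82 to 1.09 in WT males. Female ratios were 0.52 to 0.74 in Δ/Δ and 0.54 to 0.64 in Δ/+ animals, against 0.98 to 1.596 in Δ/Δ males and 0.99 to 1.21 in Δ/+ males. The ratio was 0.82 to 1.04 in the first set of cat/cat males and 0.85 to 1.38 in cat/+ males. Both groups of Δ females lay below both groups of Δ males without overlap, as did cat/cat sperm below both sets of cat/cat males. WT sperm and WT males overlapped, by the highest sperm library (0.820) and the lowest male library (0.815). These ratios are a description and compare 2 rows that differ by a single base.

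**Figure D5:**
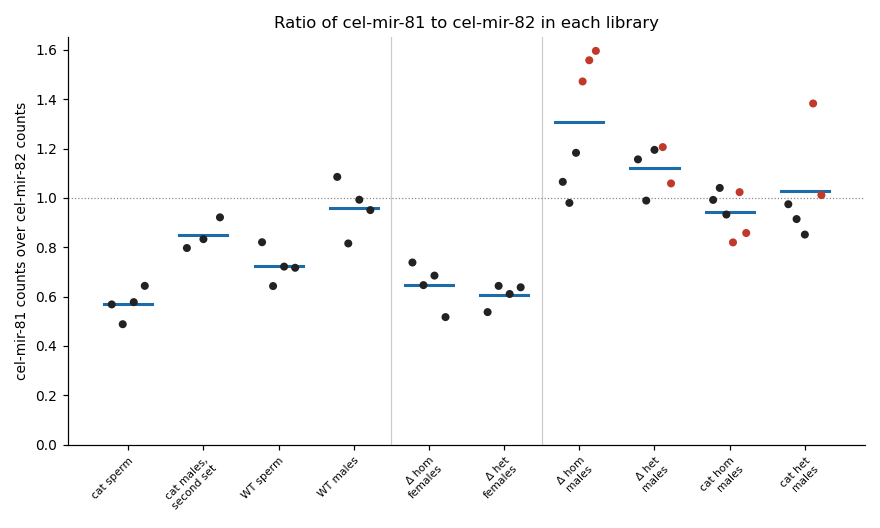
Ratio of cel-mir-81 to cel-mir-82 counts (y axis) in each library (points) of the 10 groups (x axis), with the group mean as a bar and replicates 4 to 6 of the Δ and cat males in red. Sperm groups (0.49 to 0.82) and female groups (0.52 to 0.74) lie below the Δ/Δ and Δ/+ males (0.98 to 1.596), while WT sperm overlaps WT males (0.82 to 1.09).

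The seed relative cel-mir-2209a is no member. It took 4.03, 3.67, 2.77 and 4.59% of miRNA counts in WT sperm, against 0.888, 0.864, 0.697 and 1.15% in WT males (2.06 ± 0.19, adjusted p = 4.2e-05), and in rpm it was not called lower (-0.53, adjusted p = 0.090). In cat/cat sperm it took 0.899, 0.889, 0.511 and 0.947%, below every WT sperm library (-2.21 ± 0.23, adjusted p = 7.8e-05, edgeR's quasi-likelihood test). It was nearly lacking in females, at 0.0100 to 0.0170% in Δ/+ females against 0.660 to 1.196% in Δ/+ males (-6.17 ± 0.37, adjusted p = 3.7e-08). In rpm it was lower in Δ/Δ than in Δ/+ males (-1.02 ± 0.18, adjusted p = 0.0051) and lower in cat/cat than in cat/+ males (-0.90 ± 0.21, adjusted p = 0.016), but neither call held under every scaling. TMM gave -0.59 (adjusted p = 0.12) for the Δ and -0.39 (adjusted p = 0.67) for the cat alleles, and with rRNA left out the Δ call remained (-0.75, adjusted p = 0.042) and the cat call did not (-0.56, adjusted p = 0.20). DESeq2 also kept the Δ call (-0.55, adjusted p = 0.019) and lost the cat call (-0.32, adjusted p = 0.67). Within the miRNA class cel-mir-2209a was at -0.47 (adjusted p = 0.61) for the Δ and -0.34 (adjusted p = 0.98) for the cat alleles, by edgeR's quasi-likelihood test.

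By the pattern of group means over the 10 groups, the 5 rows of 126 compared that were most like the family sum were mir-77 (Pearson's r = 0.72), mir-229 (0.65), mir-70 (0.57), mir-235 (0.54) and mir-65 (0.49). Among the members themselves, cel-mir-81 and cel-mir-82 had r = 0.72, and cel-mir-80 and cel-mir-81 had r = -0.73. These values describe 10 points that share library sets and a common denominator.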

How the data were processed

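Small RNA of 18 to 40 nt was sequenced by the authors, who trimmed reads with Trimmomatic and used Bowtie 2 to align them first to rRNA, next to miRNAs and then to tRNAs and piRNAs. Remaining reads were mapped with STAR to WS245 and assigned with featureCounts, sense reads as mRNA-fragments and antisense reads as endo-siRNAs. The authors deposited raw counts per RNA, without normalization, and 4 tables were used here. The WT sperm columns are the same in 2 of them and were counted once, and 1 further column of values was not used.

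From these, rpm were computed per library total for the WT and the Δ and cat male comparisons, and without rRNA counts for cat/cat sperm, females and comparisons across tables. tRNA genes were summed by isoacceptor, and an RNA was tested if its count reached 10 in a number of libraries equal to the smallest group compared. edgeR 4.0.16 (glmQLFit, glmQLFTest, group only; R 4.3.3, limma 3.58.1) was run on all RNAs, and again on the miRNA rows with the summed miRNA counts as library size. p-values were adjusted by Benjamini-Hochberg, with a threshold of 0.05. The test was checked on simulated counts. Alternatives were TMM, DESeq2 1.42.0, other library sizes, no filter, the replicate block and leaving out each library. Mean patterns were compared as log2 of counts per 1000000 miRNA counts plus 1, over rows of at least 100 per 1000000. Sequences and hairpins came from RefSeq WBcel235, by gene name, with mir-58.1 read as cel-mir-58a and mir-58.2 as cel-mir-58b. Counts come from reads without molecular identifiers.

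Between same-numbered Δ/Δ and Δ/+ males the correlations of deviations from the group means were 0.18 to 0.44 in 5 of 5 pairs. There 3 libraries correlated best with their own number. All members were named, with the seed relatives and the 5 rows most like the family. The members and lists were chosen with earlier results of these data known.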

Additional observations from a re-analysis of the deposited data

Results flagged for a closer look

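The spread of each member's share of miRNA counts was examined in 45 sets of libraries (member by group), and 4 held a library far from the others; chance flags about 1 in 20 such sets. For cel-mir-58b these were cat/+ male replicate 1 at 0.00672% (others 0.000376 to 0.000848%), Δ/Δ male replicate 3 at 0.0171% (others 0.000237 to 0.00207%) and cat/cat sperm replicate 3 at 0.0333% (others 0.00146 to 0.00179%). For cel-mir-82 it was Δ/+ female replicate 3 at 26.99% (others 23.9 to 24.2%).

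The sperm over male contrast differed between the cat/cat and WT libraries, by edgeR's test of the difference, for cel-mir-58b in rpm (log2 difference 4.70, adjusted p = 0.022) and for cel-mir-81 within the miRNA class (log2 difference -0.68, adjusted p = 0.046). In the rpm test 48.2% of miRNA rows were called higher, and in the class test 3.21% lower. Genotype and library set cannot be told apart in either. The call of cel-mir-58b rests on the cat/cat sperm library named above, without which it was 1.72 (adjusted p = 0.21). That of cel-mir-81 was lost with TMM (-1.46, adjusted p = 0.15), with DESeq2 (-1.16, adjusted p = 0.33) and in most fits that left out a single library. No cause of these values was tested.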

How the results depend on the processing

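Most values held: of 1089 refits of a named row, 911 kept direction and side of the threshold, 78 lost the call, 35 gained it and 65 changed sign, mostly in rows near zero. Library scaling changed most. The cause of the changes below was not tested beyond the scaling itself. "Class" marks tests within the miRNA class, N is the number of members called, and values are log2 fold changes. Where N stands without the share of RNAs called in the same fit, it is no result about the members.

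With miRNA counts as library size, WT sperm over male gave N = 1, with cel-mir-2209a at 2.06, cel-mir-58a at 0.30, cel-mir-80 at 0.10, cel-mir-81 at 0.14 and cel-mir-82 at 0.55. Δ/Δ over Δ/+ males gave N = 0 (cel-mir-58a 0.082, cel-mir-80 0.0052), cat/cat over cat/+ males cel-mir-58a 0.11 and cel-mir-80 0.23, cat/cat over WT sperm cel-mir-58a 0.14, cat/cat sperm over male N = 1 (cel-mir-2209a 0.20, cel-mir-82 0.037) and Δ/+ female over male cel-mir-81 0.072. With the members left out of the miRNA total, the class gave N = 2 in WT sperm over male, cel-mir-58a at -0.086 in cat/cat over WT sperm, cel-mir-82 at -0.094 in cat/cat sperm over male and N = 1 in Δ/+ female over male.

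With TMM, the class gave N = 0 in WT sperm over male (cel-mir-80 -0.084, cel-mir-81 -0.091), cel-mir-58a -0.998 and cel-mir-80 -0.43 in cat/cat over WT sperm, cel-mir-2209a -0.63 and cel-mir-82 -0.84 in cat/cat sperm over male, and N = 0 in the genotype difference. In Δ/+ female over male (class) N stayed 3 with TMM and DESeq2, but with cel-mir-80 and cel-mir-81 in place of cel-mir-58a and cel-mir-58b. Over all RNAs TMM gave N = 0 in Δ/Δ over Δ/+ males, cel-mir-58a 0.19, cel-mir-80 0.12 and cel-mir-82 0.0013 in cat/cat over cat/+ males, and cel-mir-80 -0.35 and cel-mir-82 -0.11 in Δ/+ female over male. With DESeq2, the class gave N = 0 in WT sperm over male (cel-mir-58a -0.060, cel-mir-80 -0.18, cel-mir-81 -0.21), cel-mir-58a -1.17 and cel-mir-80 -0.59 in cat/cat over WT sperm, cel-mir-2209a -0.74 and cel-mir-82 -0.96 in cat/cat sperm over male, cel-mir-58a 0.13 in Δ/+ female over male and N = 0 in the genotype difference. Over all RNAs it gave N = 0 in Δ/Δ over Δ/+ males (cel-mir-80 0.037), cel-mir-58a 0.25, cel-mir-80 0.20 and cel-mir-82 0.065 in cat/cat over cat/+ males, and cel-mir-80 -0.27 and cel-mir-82 -0.033 in Δ/+ female over male.

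Without rRNA in the library size Δ/Δ over Δ/+ males gave N = 0. With rRNA in it cat/cat over WT sperm gave N = 5 (cel-mir-80 -0.86) and Δ/Δ over Δ/+ females cel-mir-80 -0.0019. With no filter, N was 4 in Δ/Δ over Δ/+ males, 4 in cat/cat over cat/+ males and 1 in the allele difference. The share of all RNAs called in these fits is not given here, so these counts are no result about the members.

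With the replicate block N was 3 in Δ/Δ over Δ/+ males. Elsewhere not every same-numbered pair had a correlation over 0.1. There the block gave cel-mir-80 at 0.11 in cat/cat over cat/+ males and cel-mir-58a at 0.029 in cat/cat sperm over male (class). It gave N = 0 in the genotype difference on either scale. In cat/cat sperm over male 2 of 3 pairs had a correlation over 0.1 (0.068 to 0.23), and 3 libraries correlated best with their own number. In the cat males 4 of 5 pairs had a correlation over 0.1 (-0.08 to 0.29), and 4 libraries correlated best with their own number.

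Summing cel-mir-81 and cel-mir-82 within the class and fitting replicates 1 to 3 or 4 to 6 alone were chosen after seeing the data. Replicates 1 to 3 alone gave N = 3 in Δ/Δ over Δ/+ and N = 3 in cat/cat over cat/+ males, and replicates 4 to 6 alone N = 0 (cel-mir-58b -0.73, cel-mir-80 0.69) in Δ/Δ over Δ/+ and cel-mir-80 0.77 in cat/cat over cat/+ males. With males of replicates 1 to 3 alone cel-mir-80 was -0.52 in Δ/+ female over male.

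Leaving out each library gave N = 0 to 2 in Δ/Δ over Δ/+ males (cel-mir-58b -0.37 to 1.89), 0 to 1 in cat/cat over cat/+ males, 0 to 2 in cat/cat sperm over male (class; cel-mir-58a -0.078 to 0.044, cel-mir-82 -0.049 to 0.16), 1 to 3 in Δ/+ female over male (class; cel-mir-81 -0.022 to 0.23), 0 to 1 in the genotype difference and 0 to 4 in its class test. Over all RNAs cel-mir-58a ranged over -0.25 to 0.094 in cat/cat over WT sperm, cel-mir-58b over -1.28 to 2.26 in cat/cat sperm over male, and cel-mir-80 over -0.046 to 0.046 in Δ/Δ over Δ/+ females and -0.15 to 0.45 in Δ/+ female over male. Depth limits cel-mir-58b, which had 2 to 314 counts per library.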
